A study of Arabidopsis thaliana with 6 samples.

Results

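Regions bound in seedlings by the transcription factor LEAFY (LFY) were divided by whether the oligomerization mutant LFYTERE also had a called region there. The members were chosen by the overlap of both deposited region lists: a p35S:LFY region that no p35S:LFYTERE region overlaps by 1 bp or more is called lost, and any other is called shared. Of all p35S:LFY regions, 1781 were lost and 173 were shared, so that 91.1% were lost (exact binomial 95% interval over regions 89.8 to 92.4). This count is the rule itself and carries no test. Lost means only that no region was called in p35S:LFYTERE, not that LFYTERE coverage was absent.

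Chromatin immunoprecipitation followed by sequencing was done on whole 15-day-old Arabidopsis thaliana seedlings of 3 genotypes, with 2 biological replicates each. The p35S:LFYTERE plants (line CA29-17) express LFY with the changes T75E and R112E in its sterile alpha motif (SAM) domain, the p35S:LFY plants (line CA26-15) express unchanged LFY, and Col-0 is the wild type without a transgene. The labels give growth on plates of MS medium in long days at 23 °C, and the antibody was raised against the C-terminal part of LFY. Each genotype with a transgene is 1 line, and the constitutive 35S promoter places the protein in cells that normally lack it. Whether the endogenous LFY gene is intact in these lines was not checked here. By the study's account, expression of endogenous LFY at this stage is minimal beside that of the transgenes, which was not checked here either. The study compared these genotypes to ask how oligomerization affects where LFY binds. No expression data were used, so the labelled tissue was not checked against marker genes.

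LFY is a plant-specific transcription factor that gives a young meristem the identity of a flower and switches on the floral organ identity genes. Its C-terminal domain contacts a short, nearly palindromic DNA site as a dimer, and its N-terminal SAM domain lets the protein assemble into larger oligomers, which the T75E and R112E changes prevent. Among its best-known direct targets are APETALA1 (AP1) and AGAMOUS (AG).

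Each region has 1 rank and 1 coverage fold reduction (CFR), computed by the authors over fused replicates, so no deviation between replicates can be given. Rank orders the regions of a list from the best at 1. CFR is the normalized p35S:LFY coverage divided by that of p35S:LFYTERE, so a high CFR means less coverage by LFYTERE. Rank, width and CFR come from the contrast that chose the members and are described without a test. Intervals cover the sampling of regions only, neighbouring regions are not independent, and the Col-0 libraries served as controls for both lists. The lists state no sequencing depth. The study's read counts are lower for p35S:LFYTERE than for p35S:LFY, so genotype and depth cannot be told apart in whether a region was called.

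At the edge of the rule the lists left a clear gap. The lost region nearest to any p35S:LFYTERE region lay 140 bp away, beside MYB17, and the next were 154 bp away (nearest gene AT5G62140) and 158 bp away (nearest gene AT3G05810). The smallest overlap of a shared region was 82 bp, in RBL12. Next were 91 bp in a region 3040 bp from its nearest gene, the prefoldin gene PFD3, and 94 bp near AT4G23760. The median overlap of shared regions was 283 bp and the largest 593 bp. Few lost regions therefore depended on where a region's boundary fell: 15 lay within 500 bp of a p35S:LFYTERE region, 43 within 2 kb, and the median distance was 192551 bp. Of the 176 p35S:LFYTERE regions, 168 overlapped a p35S:LFY region and 8 overlapped none.

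Shared regions were more frequent among the best ranks, but lost regions formed the large majority at every rank. In ranks 1 to 100, 80 of 100 regions were lost, and in ranks 101 to 200, 85 were. In ranks 1 to 400, 332 of 400 were lost, 83.0% (exact interval 79.0 to 86.6), and from rank 401 on, 1449 of 1554, or 93.2%. The highest share in any full bin of 100 ranks was 98 lost, and the last 54 ranks held 52 lost regions. Median rank was 1026 for lost regions (quartiles 532 and 1496) and 538 for shared regions (257 and 930), and both kinds ran through nearly the whole list, the lost ones from rank 1 and the shared ones from rank 4.

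**Figure D1:**
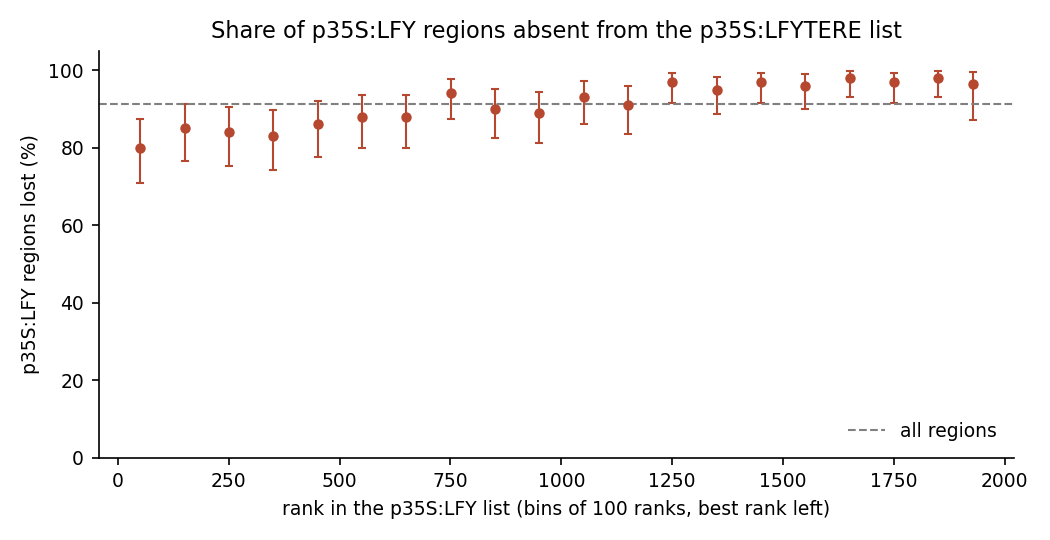
Percent of p35S:LFY regions lost (points, with exact binomial 95% intervals over regions) in bins of 100 ranks, best ranks left, and over all regions (dashed line, 91.1%). The share was 80 to 85% in the 4 bins of best rank and 95 to 98% from rank 1201 on.

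Lost regions were narrower over the whole list and nearly as wide as shared ones among the best ranks. Median width was 362 bp for lost regions (quartiles 307 and 438) and 403 bp for shared regions (336 and 476). In ranks 1 to 400 the medians were 480 bp for lost regions (413 and 551) and 486 bp for shared regions (428 and 554). In 4 classes of width with about equal numbers of regions, from the narrowest to the widest, 93.3, 95.3, 89.1 and 86.9% of regions were lost. In all, lost regions covered 679573 bp and shared regions 71886 bp.

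CFR separated both kinds only in part. The median CFR was 8.12 for lost regions (quartiles 5.35 and 14.0) and 2.99 for shared regions (2.46 and 3.71). In ranks 1 to 400 it was 9.88 for lost regions (6.67 and 17.0) and 3.51 for shared regions (2.86 and 4.41). Of the lost regions, 1053 had a CFR at or below 9.62, the highest of any shared region, a share of 59.1%. All 690 regions with a CFR above 10 were lost, while 20 shared regions lay below 2.13, the lowest CFR of a lost region.

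At a CFR of up to 5, the share of regions lost was higher further down the ranking. Rank and CFR both come from the coverage behind the calls that the rule used, so this is a description of the lists only. Of regions with a CFR above 3 and up to 4, 7 of 31 were lost in ranks 1 to 400, 18 of 30 in ranks 401 to 800, 31 of 39 in ranks 801 to 1200 and 82 of 86 from rank 1201 on. At a CFR above 4 and up to 5 the counts in the same order were 20 of 34, 34 of 38, 48 of 50 and 86 of 87. At a CFR up to 3, none of 21 regions was lost in ranks 1 to 400, against 30 of 44 from rank 1201 on. At higher CFR most regions were lost in every rank class, which left little room for such a difference. At a CFR above 5 and up to 7, 66 of 73, 70 of 71, 74 of 75 and 161 of 165 were lost in the 4 rank classes. Above 7 and up to 10 the counts were 78 of 80, 76 of 76, 63 of 64 and 139 of 140.

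**Figure D2:**
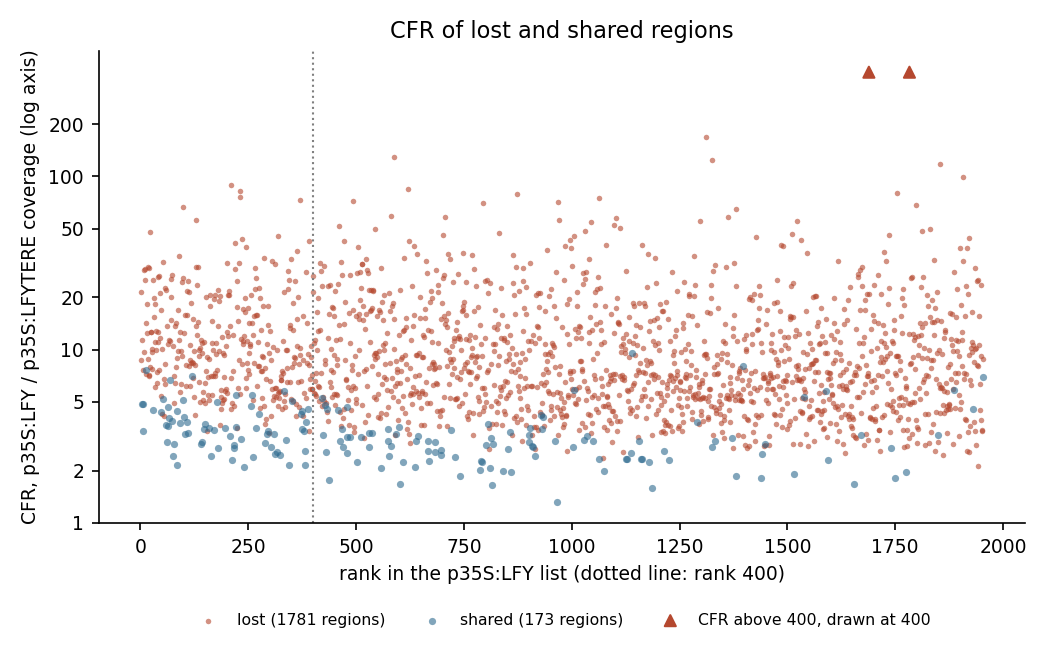
CFR (p35S:LFY over p35S:LFYTERE coverage, log axis) against rank in the p35S:LFY list, 1 point per region, for 1781 lost and 173 shared regions. Triangles mark lost regions with a CFR above 400, drawn at 400. Shared regions lie along the lower edge, none above 9.62, and overlap with lost regions of low CFR.

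The lost regions of lowest CFR and the shared regions of highest CFR show this overlap in single genes. The lost region beside AT1G25400 had a CFR of 2.13 at rank 1942, and one beside AT1G19660, which encodes the nuclease BBD2 of basal defence, had 2.36 at rank 1072. ELF4-L1, a relative of the circadian clock gene ELF4, held a lost region of CFR 2.54 at rank 1633. Among shared regions, those with the nearest genes AT4G23760 (CFR 9.62, rank 1139) and PFD3 (CFR 8.07, rank 1396) overlapped their p35S:LFYTERE region by only 94 and 91 bp. The shared region near AT3G50400 kept a call at CFR 7.65, with rank 13 in p35S:LFY and rank 124 in p35S:LFYTERE. Both of these list positions are orders within their own list.

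The 20 best-ranked lost regions lay near genes of varied function. The best rank of all, in the cytochrome P450 gene CYP81D7, was lost, and the nearest p35S:LFYTERE region was 441418 bp away. TCL2, which encodes a small MYB repressor of trichome formation, held a lost region of rank 11 and CFR 29.3, and its neighbour TCL1, a repressor of the same kind, was within 3 kb. The region in MYB12, an activator of flavonol synthesis, had rank 12 and CFR 14.3. AT5G57130 (SMAX1-like 5) held rank 10 with CFR 25.3, and the region near AT4G09530 (SAUR17, of the small auxin-upregulated family) had rank 23 with CFR 47.7. Lower CFR values among these 20 lost regions were those of the aquaporin gene PIP2;8 (7.11, rank 20), PMAT2, a malonyltransferase gene (7.26, rank 14), and PKS4, a phytochrome kinase substrate gene (7.96, rank 22).

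The 10 best-ranked shared regions also lay near genes of varied function. Rank 4, nearest to AT1G24265, is within 3 kb of the floral organ identity gene SEPALLATA3 (SEP3) and had rank 29 in p35S:LFYTERE. The region in MTO1, a gene of methionine synthesis, had rank 29 in p35S:LFY, rank 80 in p35S:LFYTERE and CFR 4.45. The region beside RVE8, a MYB-like component of the circadian clock, had rank 47, rank 74 in p35S:LFYTERE and CFR 4.35. The region near MSS3 had rank 61 in p35S:LFY and rank 14 in p35S:LFYTERE, with CFR 2.92. In these 10 shared regions CFR ran from 2.92 to 7.65, and in the 20 lost ones from 7.04 to 47.7.

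The place of a region relative to genes was not used by the rule and was tested. Each region midpoint was classed as inside a protein-coding gene, outside but within 1 kb of one, or beyond 1 kb, and lost and shared regions were compared by two-sided Fisher's exact tests with Benjamini-Hochberg adjustment over the 3 classes. Over all ranks, 773 of 1781 lost regions (43.4%) and 80 of 173 shared regions (46.2%) were inside a gene, a difference of -2.84 percentage points (95% interval -10.6 to 4.79, Fisher's exact test, adjusted p = 0.568). Within 1 kb outside a gene were 38.2% of lost and 40.5% of shared regions (difference -2.23, interval -10.0 to 5.16, Fisher's exact test, adjusted p = 0.568). Beyond 1 kb were 327 lost regions (18.4%) and 23 shared regions (13.3%), a difference of 5.07 points (interval -1.05 to 9.73, Fisher's exact test, adjusted p = 0.356). No class passed the threshold of 0.05, and the intervals leave room for differences of up to about 10 points. The tests are over regions of 1 pair of lists, which are not replicates of a genotype.

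The same tests in ranks 1 to 400 gave no call either. Inside a gene were 168 of 332 lost regions (50.6%) and 29 of 68 shared regions (42.6%), a difference of 7.96 points (interval -5.04 to 20.2, Fisher's exact test, adjusted p = 0.430). Outside within 1 kb were 32.5% of lost and 44.1% of shared regions, a difference of -11.6 points (interval -24.3 to 0.741, Fisher's exact test, unadjusted p = 0.0704, adjusted p = 0.211). Beyond 1 kb were 16.9% of lost and 13.2% of shared regions (difference 3.63, interval -7.05 to 11.2, Fisher's exact test, adjusted p = 0.589). The direction for regions inside genes was opposite to that over all ranks, with both intervals spanning 0. For the class outside within 1 kb, the interval excluded 0 under 2 alternatives, without passing the threshold after adjustment. The difference was -13.8 points (interval -26.2 to -1.64, Fisher's exact test, p = 0.0289, adjusted p = 0.0866) when a gap of up to 500 bp counted as shared, and -12.0 points (interval -24.0 to -2.07, Fisher's exact test, p = 0.0197, adjusted p = 0.0591) when any overlap with a gene counted as inside.

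**Figure D3:**
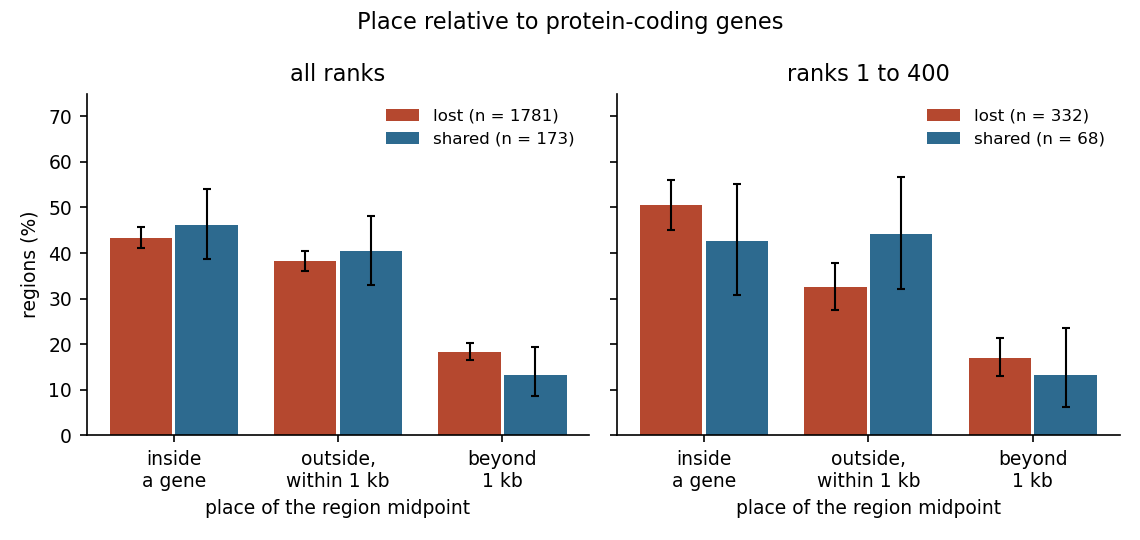
Percent of lost and shared regions with their midpoint inside a protein-coding gene, outside within 1 kb, or beyond 1 kb, over all ranks (left) and in ranks 1 to 400 (right). Error bars are exact binomial 95% intervals over regions. Each lost bar lies within the shared interval of its class, but not every shared bar lies within the lost interval. The widest gap is outside within 1 kb in ranks 1 to 400 (32.5% lost, 44.1% shared), where the lost interval is 27.5 to 37.9.

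Regions outside genes lay a median of 574.5 bp from the nearest gene where lost and 358 bp where shared, and in ranks 1 to 400 the medians were 485 and 314 bp. These distances were not tested. Beyond 3 kb of any protein-coding gene lay 51 lost and 3 shared regions. The farthest lost region, whose nearest gene is PMAT2, lay 17522 bp from it and still had rank 14. Of regions beyond 1 kb, the midpoint fell in an annotated long noncoding RNA for 16 lost regions and 1 shared region, and in no annotated noncoding gene or pseudogene for 302 lost and 22 shared regions. The median number of protein-coding genes within 50 kb was 28 for lost regions and 29 for shared regions. By chromosome, the share lost was 93.5, 94.2, 87.9, 88.0 and 90.7% on chromosomes 1 to 5.

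All p35S:LFY regions together had 1757 nearest genes. Of these, 1589 had lost regions only (90.4%), 138 had shared regions only, and 30 had both. Most lost-only genes, 1449, had a single lost region. Counting genes with or without a shared region, 123 had 2 lost regions and 19 had 3 or more. The 123 include BOP1, which also had a shared region, and 18 of the 19 had no shared region.

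The genes with 3 or more lost regions included several transcription factor genes. BBX31, a B-box gene, had regions of CFR 129.2, 35.9 and 22.7, the last with rank 56. MYB37 (RAX1), which promotes the formation of axillary meristems, had regions of CFR 55.7, 22.7 and 5.80 at ranks 129, 511 and 196. Regions of the same gene could thus differ widely in CFR. MYB28, an activator of aliphatic glucosinolate synthesis, had CFR values of 50.7, 15.7 and 14.9, and the bHLH gene BHLH32 21.6, 9.50 and 5.34. AT1G29435, beside the auxin-responsive gene SAUR63, held ranks 15, 63 and 724, with CFR values of 12.4, 10.8 and 24.6. Of the regions of BBX31, MYB37, MYB28 and AT1G29435, none was closer to a p35S:LFYTERE region than 112260 bp, the distance from one of MYB37. The lost regions of PIP3, an aquaporin gene, ran lower and closer together, from 4.97 to 5.46 in 4 regions.

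At the 30 genes with both kinds, the lost region mostly had the worse rank and the higher CFR. The shared region had the better rank at 27 of the 30 genes, and the lost region had the higher CFR at 27. The median CFR was 8.997 for the lost and 3.47 for the shared region, and the median gap between them was 780.5 bp (94 to 6701). At AP1, the shared region (chromosome 1, 25986248 to 25986933) had rank 140 and CFR 2.86, and its p35S:LFYTERE counterpart overlapped it by 323 bp. A lost region inside AP1 (25984912 to 25985159) had rank 1475 and CFR 18.9, and lay 1150 bp from the nearest p35S:LFYTERE region. The same layout was found at HAM3, a GRAS gene of meristem maintenance, with a lost region of rank 1355 and CFR 10.9, 185 bp from a shared region of rank 103 and CFR 3.25.

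BOP1, a regulator of leaf and floral patterning, had lost regions of CFR 6.40 (rank 1301) and 25.8 (rank 1787) and a shared region of CFR 3.59 (rank 599). TSD2, needed for cell adhesion and orderly shoot growth, had a lost region of CFR 3.73 (rank 1837) beside a shared one of CFR 2.44 (rank 75). At the expansin gene EXPA6 the values were 9.08 (rank 767) for the lost and 2.07 (rank 559) for the shared region. The steepest contrast between neighbours was at AT5G62140, where a lost region of CFR 74.8 (rank 1064) lay 94 bp from a shared one of CFR 3.13 (rank 480). Around PIP3, 4 lost regions and 1 shared region (CFR 2.92, rank 682) lay in the largest group of neighbours, together with a lost region of AT4G35110 (CFR 5.64).

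**Figure D4:**
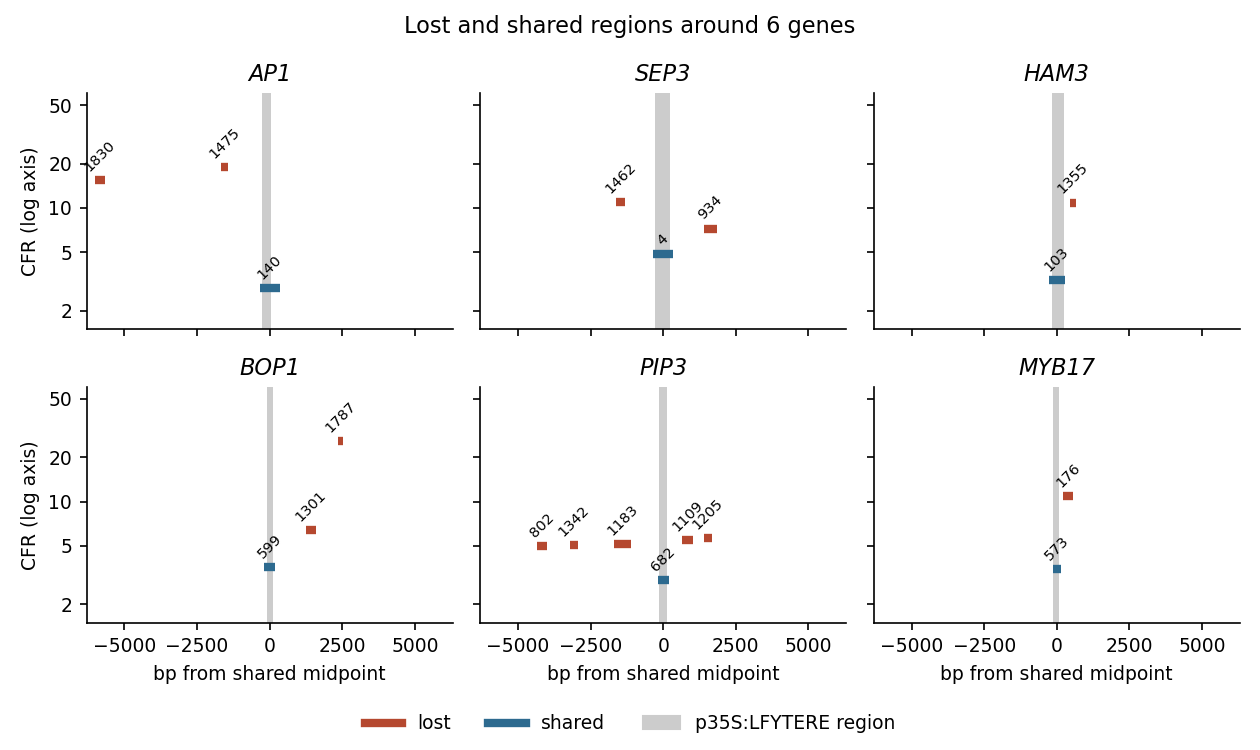
Lost and shared p35S:LFY regions around 6 genes, drawn by distance in bp from the midpoint of the shared region (x axis) and by CFR (y axis, log), with the rank beside each region. Grey bands are p35S:LFYTERE regions. At AP1, SEP3, HAM3, BOP1 and PIP3 the lost regions have a higher CFR and a worse rank than the shared one, and at MYB17 the lost region has the better rank, 176 against 573.

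Some strong lost regions lay next to a p35S:LFYTERE region. Of the 25 lost regions within 1000 bp of one, the p35S:LFYTERE region overlapped another, shared p35S:LFY region in 24 cases. The shared neighbour had the better rank in 19 of these 24. An exception was MYB17, which encodes a MYB factor acting in floral meristem identity: its lost region had rank 176 and CFR 10.9, and the shared neighbour, nearest to AT3G61240, had rank 573 and CFR 3.50. At AT3G05220 the lost region had rank 333 and CFR 5.08, whereas the shared neighbour had rank 1671 in p35S:LFY, CFR 3.20 and rank 2 in p35S:LFYTERE. The lost region at AT2G32090, rank 33 and CFR 6.06, lay 267 bp from the p35S:LFYTERE region of rank 7, which overlapped no p35S:LFY region. The median CFR was 9.51 in these 25 lost regions and 8.11 in the other lost regions.

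Of the p35S:LFY regions, 425 lay in 193 groups of neighbours within 2 kb of each other. In 155 groups every region was lost, in 4 every region was shared, and 34 were mixed. The best rank was a shared region in 25 of the 34 mixed groups. Regions in groups were lost in 380 of 425 cases (89.4%), and regions alone in 1401 of 1529 (91.6%). The longest all-lost groups held 4 regions. One covered AT1G29435 and AT1G29460, with ranks 15, 63, 202 and 724, and another covered AT1G47395 and AT1G47400, with CFR values from 17.9 to 33.8.

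Genes of 17 lists were then counted by the kind of their nearest regions. The lists were chosen with earlier results known, and those of floral genes hold recognised LFY targets, so they are no independent evidence. Each count stands beside the 90.4% of all nearest genes that had lost regions only. Of the floral meristem and organ identity list, 8 of 21 genes were nearest to a region, of which 6 had lost regions only and 2, AP1 and BOP1, had both. SEP4, a partner of other MADS-domain organ identity factors, had a lost region of CFR 84.3 (rank 621), and SHP2, which acts in fruit opening, one of CFR 19.8 (rank 676). The lost region in AG had rank 443 and CFR 10.1, and no p35S:LFYTERE region was closer than 433288 bp. BOP2, the close relative of BOP1, had a lost region of low CFR, 3.53 (rank 1246).

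Counting any gene within 3 kb of a region, 89.3% of all such genes had lost regions only. Of the floral genes 10 had a region within 3 kb, 6 of them lost ones only (60%, exact interval 26.2 to 87.8, below 89.3%). The other 4 had both, so SEP3 and MYB17 joined AP1 and BOP1. The count by gene also depends on how many regions each gene has. By region, 12 were lost and 4 shared, a count given without an interval, beside 91.1% lost of all regions. The share lost changed with rank, and rank was not matched in these counts. The AGAMOUS-LIKE family, which holds some of the same genes, had 7 of 11 with lost regions only (63.6%, interval 30.8 to 89.1, also below 89.3%). Its 2 genes with both kinds, AP1 and SEP3, are also in the floral list. Its 2 genes with shared regions only, MAF3 and MAF4, have the same region (CFR 3.49, rank 375), counted once for each. By region, 10 were lost and 3 shared, beside the same 91.1% and again without an interval or matching by rank. The region near the petal and stamen identity gene AP3, in WRI1, was lost with CFR 5.23 (rank 848). Near TFL1, which keeps the inflorescence shoot from forming a flower, both regions within 3 kb were lost. They lay 2563 bp (CFR 22.5, rank 342) and 2282 bp (CFR 31.7, rank 1376) from TFL1, and their nearest gene was AT5G03830. The nearest p35S:LFYTERE region was 50523 bp away. By nearest gene, the boundary genes CUC3 (CFR 40.4, rank 1079) and CUC2 (CFR 12.6, rank 1904) had lost regions of low rank. So did the shoot meristem gene STM (CFR 14.2, rank 1608), but that region lay 4491 bp away, beyond 3 kb. CUC3, CUC2 and STM were the 3 genes of 17 in the inflorescence and shoot meristem list with a nearest region.

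Of the flowering time list, 7 of 24 genes had a nearest region and 6 had lost ones only. FD, the bZIP partner of the florigen FT, had lost regions of CFR 5.04 (rank 355) and 13.8 (rank 787). TEM1, a repressor of FT, had lost regions of CFR 19.2 (rank 509) and 11.04 (rank 675), and its relative TEM2, listed as RAV2, one of CFR 3.25 (rank 1682). GI, which links the clock to flowering, had a lost region of CFR 5.19 (rank 499). The gene with a shared region was MAF4, a relative of the floral repressor FLC, with CFR 3.49 (rank 375). MAF1, of the same family, had a lost region of CFR 4.44 (rank 1530). The floral, inflorescence and shoot meristem, flowering time and axillary meristem lists were also counted together. Of their regions by nearest gene, 23 of 26 were lost, or 88.5% (exact interval 69.8 to 97.6), beside 91.1% of all regions. In ranks 1 to 400 the count was 4 of 6, beside 83.0%.

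In the hormone lists, 29 of 31 regions were lost, or 93.5% (exact interval 78.6 to 99.2), beside 91.1% of all regions. All 8 regions whose nearest gene is of the auxin list were lost. A shared region (CFR 2.26, rank 790) that overlaps ETT, an auxin response factor gene, counts to another gene by its midpoint. The lost regions included those of YUC4, an auxin synthesis gene (CFR 12.2 and 15.3, ranks 262 and 661), the efflux carrier gene PIN4 (CFR 9.03, rank 284) and the kinase gene PID (CFR 4.34, rank 926). The auxin response factor gene MP was nearest to lost regions of CFR 2.59 and 2.91, at ranks 1842 and 1849, which lay 3367 and 4144 bp away. All 8 regions nearest to cytokinin genes were lost as well, among them those of the synthesis genes IPT5 (CFR 5.92, rank 198) and IPT3 (CFR 20.7, rank 204), the response regulator gene ARR3 (CFR 33.8, rank 286) and CKX5, which encodes a cytokinin-degrading oxidase (CFR 4.66, rank 335).

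In the gibberellin list, 9 of 10 regions were lost. The synthesis genes GA20OX1 (CFR 22.2 and 7.80), GA3OX2 (9.04) and GA3OX1 (15.9), the inactivating GA2OX2 (7.12) and the DELLA repressor gene RGL1 (71.3) had lost regions at ranks from 603 to 1667. The shared region was that of CYP714A1, whose product deactivates gibberellins, with CFR 4.98 and the best rank of the list by nearest gene, 177. Within 3 kb, GID1B of the same list had a lost region of better rank, 131 (CFR 12.2). In the abscisic acid list, 4 of 5 regions were lost. The receptor gene PYL4 had a lost region of CFR 7.87 (rank 670), and the receptor gene PYL5 a shared one of CFR 1.58 (rank 1186). CYP707A1, which encodes an enzyme of abscisic acid breakdown, had a lost region of CFR 99.5 at rank 1908.

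In the 8 transcription factor families counted by symbol, 84 of 88 regions were lost, 95.5% (exact interval 88.8 to 98.7, which holds the 91.1% of all regions). In ranks 1 to 400 the count was 21 of 24, or 87.5% (67.6 to 97.3), beside 83.0%. The 4 shared regions belonged to AP1, MAF4, MYB11 and MYB48. The flavonol activators MYB12, MYB111 and MYB11 fell on both sides: MYB12 had lost regions of CFR 14.3 and 11.7 (ranks 12 and 728), MYB111 a lost region of CFR 6.86 (rank 123), and MYB11 a shared region of CFR 2.93 (rank 144). Other lost regions of the MYB family were those of MYB59 (CFR 7.07, rank 169) and PAP1, an activator of anthocyanin synthesis (CFR 8.76, rank 303). All 21 regions nearest to NAC genes were lost, led by RD26, a drought and abscisic acid response gene (CFR 9.70, rank 26), and NAC014 (CFR 13.7, rank 62). With 20 NAC genes, the exact interval for the share of genes with lost regions only was 83.2 to 100%, which holds 90.4%. Within 3 kb, 25 of 26 NAC genes had lost regions only, and NAC080 had a shared region (CFR 4.56, rank 432).

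All nearest regions were also lost for the genes matched by symbol to the ERF, WRKY, bHLH, bZIP and homeodomain families, with 8, 10, 7, 5 and 8 regions. These small counts stand beside 91.1% lost of all regions. Family members under other names are not counted, such as the bZIP gene FD. The count by any gene within 3 kb was lower for WRKY genes, 8 of 11 with lost regions only (72.7%), with shared regions near WRKY69 (CFR 1.99, rank 840), WRKY36 (CFR 2.83, rank 217) and WRKY2 (CFR 3.57, rank 222). Of the bHLH genes, 7 of 8 had lost regions only within 3 kb, and bHLH121 had a shared region of rank 66 (CFR 4.02). The homeodomain gene HAT3, which acts in leaf polarity and shade responses, had rank 32 and CFR 19.7. ERF15 had lost regions at ranks 39 and 699 (CFR 7.46 and 18.7), ERF2 one at rank 117 (CFR 8.41) and WRKY48 at ranks 167 and 985 (CFR 14.6 and 6.51). In the cytochrome P450 family, 24 of 26 regions were lost, and of its 22 genes 20 had lost regions only, 90.9%, beside 90.4%. By nearest gene, the exact interval held 90.4% in each of the 17 lists. Within 3 kb it held 89.3% in all but the floral list and the AGAMOUS-LIKE family, with upper limits of 87.8 and 89.1%. These intervals were not adjusted for the number of lists, and both of these lists hold AP1 and SEP3.

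**Figure D5:**
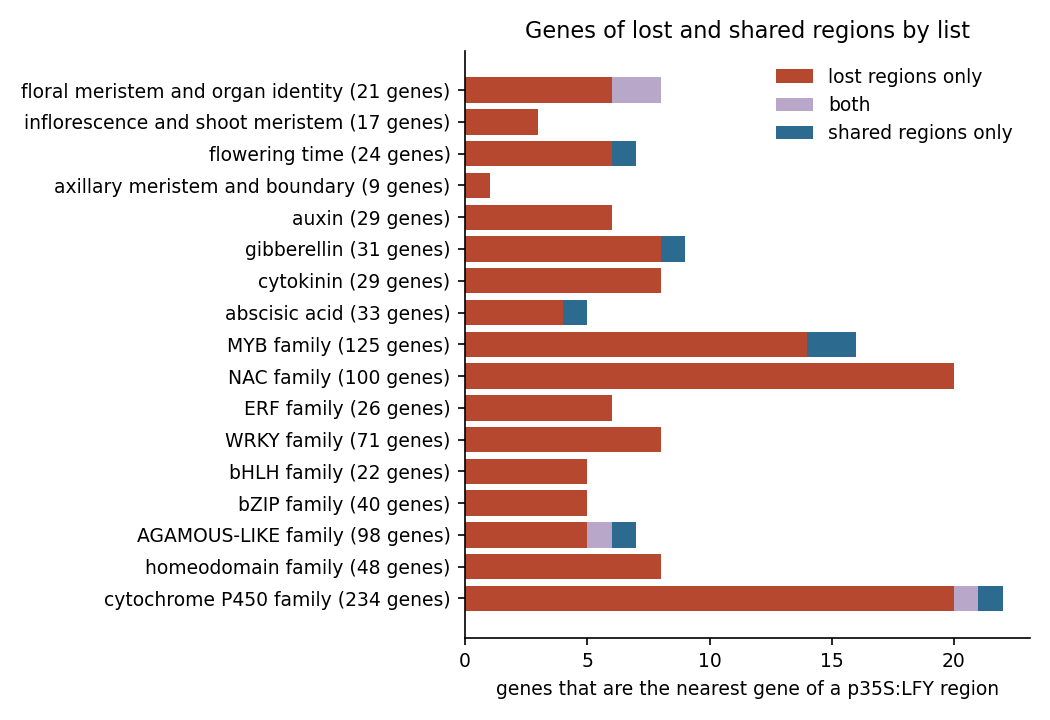
Number of genes (x axis) in each of 17 lists that are the nearest gene of a p35S:LFY region, divided into those with lost regions only, both kinds, and shared regions only. Numbers in brackets are the genes of each list. The NAC family had 20 genes with lost regions only and none with a shared region, and the floral list had 6 with lost regions only and 2 with both.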

How the data were processed

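The authors mapped the reads to TAIR10, the build in the submitters' processing notes, removed duplicates with SHORE and kept peaks that passed a false discovery rate limit of 1e-07 in each of the 4 pairings of a replicate with a Col-0 control. Reads were extended by 130 bp for coverage. The deposited lists give each region a rank, a score that orders regions within its list, and CFR, a linear ratio of the authors' scaled, fused coverages. CFR is not finite in 1 lost region. Depth per sample was not used here.

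Genes came from a RefSeq table of TAIR10.1 (27444 protein-coding genes on 5 chromosomes), used for names and neighbourhood only. Printed coordinates are TAIR10, counted from 1. Midpoints of p35S:LFY regions lay outside genes in 56.3% of cases, and in 39.4 and 35.9% when moved by 5000 bp to either side. Moves of 100 bp gave 56.9 and 55.5%, so a small offset would not be seen. A region's gene is the one holding its midpoint, or else the nearest. Gene list symbols were matched for 193 of 197 entries, and families by symbol or synonym.

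The members, lists and tests were chosen with earlier results of these data known. Named genes were those of the 20 best-ranked lost and 10 best-ranked shared regions, the extremes of CFR, the edges of the rule, genes with 3 or more lost regions or both kinds, up to 5 genes per list, and AP1, AG, AP3 and TFL1. Genes outside this rule (EXPA6, PIP3, SHP2, BOP2, SEP3, MAF1, RAV2, MP, GA3OX1, MYB48, PAP1, ETT's shared region, NAC080, WRKY69, WRKY36, WRKY2, bHLH121, AT3G05220, AT2G32090, AT4G35110, AT1G29460 and AT1G47395) were named after their values were seen. MAF3 and GID1B were also named after their values were seen. Intervals are exact binomial (shares) or Newcombe (differences of shares). Tests were Fisher's exact tests, tested on simulated data. Python 3.11.15, numpy 2.4.6, pandas 2.3.3, scipy 1.17.1, statsmodels 0.14.6 and matplotlib 3.10.9 were used. Motif tests and places by strand were planned but not run, since sequence and strand were not used here. Alternatives changed the overlap, ranks, grouping of neighbours, gene set and windows.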

Additional observations from a re-analysis of the deposited data

How the results depend on the processing

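The share of p35S:LFY regions lost was 91.1%, and stayed within its interval when an overlap of 50% of the shorter region was required, when the midpoint decided, when a gap of 500 bp counted as shared, or with 1 region per group of neighbours. It was 95.6% against the better-ranked p35S:LFYTERE regions alone, 86.7% in ranks 1 to 1000 and 83.0% in ranks 1 to 400. The cause was not tested, apart from fewer p35S:LFYTERE regions in the first of these. Of 39 place tests under alternatives, 37 kept the direction of their difference, and the lowest adjusted p of all 45 place tests was 0.0591. The unadjusted interval excluded 0 in 3 of these 39: the 2 given above for ranks 1 to 400, and regions beyond 1 kb in ranks 1 to 1000 (7.23 points, interval 0.160 to 12.5, Fisher's exact test, adjusted p = 0.16). The difference for regions outside but near genes, -2.23 points, changed sign to 0.0867 points with all annotated genes, and the cause was not tested. It was 1.71 points with 3 kb in place of 1 kb, a setting that widens the class by regions at 1 to 3 kb. The difference for regions beyond the window went from 5.07 to 1.13 points there, so the 2 windows do not compare the same classes. With any gene within 3 kb, the share of each of the 17 lists stayed within its interval by nearest gene. The intervals of the floral and AGAMOUS-LIKE lists, which share genes, then lay below the 89.3% of all genes. These intervals were not adjusted for the number of lists. The WRKY share was 72.7%, against 100% by nearest gene. No paired analysis was possible because the lists fuse both replicates, and for the same reason no replicate could be left out. Motif tests and their alternatives were not run. Depth and coverage per replicate were not used here, and a missing call was not tested against the detection limit.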
